A study of Homo sapiens with 7 samples.

Results

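The proteasome genes are the protein-coding genes that encode the parts of the proteasome, and they were taken from the RefSeq GRCh38 gene table by symbol, as PSM followed by a letter from A to G and a number. The rule gave 47 genes on chromosomes 1 to 22, of 19126 protein-coding genes there. The family was selected on earlier results of the same peak lists, in which PSMD1 and PSMD12 held some of the strongest peaks, so the values below describe the members and no test was made over them. A peak was assigned to a gene when its summit lay in the gene's span or within 3 kb of either end.

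Binding of PPARα, a nuclear receptor that senses fatty acids, was mapped by chromatin immunoprecipitation and sequencing (ChIP-seq) in HepG2, a human line derived from hepatocellular carcinoma. The PPARα+ERα cells carried expression vectors for PPARα and the estrogen receptor ERα and received PPT, an ERα agonist, at 10 nM for 45 min before the PPARα agonist WY14643. The PPARα+ERβ cells carried vectors for PPARα and ERβ and received DPN, an ERβ agonist, at 10 nM for 45 min before WY14643. The PPARα cells carried the PPARα vector alone and received WY14643 without an ER agonist. WY14643 was given at 10 µM for 2 h in all 3 groups, and agonist treatment began 48 h after transfection. All groups thus hold PPARα from a vector in addition to the cells' own, and the estrogen receptor and its agonist always came together, so their parts cannot be told apart. Each group had 2 libraries with a peak list, numbered 1 and 2 in order of deposit, and the labels do not describe them as separate cultures, so the spread between them may be technical. With 2 libraries against 2, the smallest exact permutation p is 0.333, so presence or absence of a peak was compared without a test.

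The proteasome degrades proteins tagged with ubiquitin. Its 20S core is a barrel of alpha rings (PSMA), which form the gate, and beta rings (PSMB), some of which carry the protease sites. The 19S particle caps the core with a ring of ATPases (PSMC) that unfold substrates and with non-ATPase subunits (PSMD) that bind, deubiquitinate and position them. PSME genes encode other activators, PSMF1 an inhibitor, and PSMG genes chaperones of core assembly. In cells short of proteasome activity, most of these genes are induced together by the transcription factor NFE2L1 through antioxidant response elements in their promoters.

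The promoters of PSMD1, PSMA6 and PSMD12 are shown because the strongest PPARα+ERα peaks of the family lay over, just before or just inside their start sites. Each sequence is the 250 bases before the start site from the RefSeq promoter table (GRCh38.p14), written 5′ to 3′ on the gene's strand. Capitals mark matches to the nuclear receptor half-site AGGTCA or its reverse TGACCT in PSMD1 and PSMA6, and, in PSMD12, to the antioxidant response core TGACNNNGC and to the reverse of the ETS factor core CCGGAAG.
PSMD1, chr2:231056617-231056866, plus strand: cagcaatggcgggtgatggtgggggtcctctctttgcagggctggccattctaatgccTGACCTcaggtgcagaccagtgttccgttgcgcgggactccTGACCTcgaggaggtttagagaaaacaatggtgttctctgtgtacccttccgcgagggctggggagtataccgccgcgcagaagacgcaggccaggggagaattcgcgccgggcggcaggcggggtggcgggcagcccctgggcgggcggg
PSMA6, chr14:35292067-35292316, plus strand: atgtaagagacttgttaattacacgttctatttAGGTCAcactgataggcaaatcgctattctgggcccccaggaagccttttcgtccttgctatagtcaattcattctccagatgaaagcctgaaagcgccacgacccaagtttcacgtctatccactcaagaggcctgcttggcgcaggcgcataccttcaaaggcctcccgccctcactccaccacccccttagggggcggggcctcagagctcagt
PSMD12, chr17:67366578-67366827, minus strand: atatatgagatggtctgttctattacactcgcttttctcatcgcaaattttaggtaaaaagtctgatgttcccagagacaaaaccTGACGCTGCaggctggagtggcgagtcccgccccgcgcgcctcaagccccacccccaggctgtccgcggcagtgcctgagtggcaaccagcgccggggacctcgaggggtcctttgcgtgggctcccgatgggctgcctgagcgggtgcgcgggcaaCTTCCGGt
The PSMD1 window lay wholly inside the peak called in both PPARα+ERα libraries, and it held the reverse half-site at −192 to −187 and at −151 to −146 from the start site. In PSMA6 the half-site at −217 to −212 lay inside the peak of both PPARα+ERα libraries, which covered only the distal part of the window. The summits of both genes lay further out than the first printed base. The PSMD12 window held the antioxidant response core at −165 to −157 and the ETS core at −8 to −2, and no peak of any library reached it.

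The 6 lists were unequal, which bears on every count below. They held 24145 and 27180 peaks with PPARα+ERα, 17032 and 22697 with PPARα+ERβ, and 23182 and 35229 with PPARα. The number of DNA fragments at a summit and the local background there were recovered from the authors' fold and p-value. The background is given as a multiple of the list's genome-wide level. That level was not measured, and a value near the lowest local background among the list's own peaks stands for it. The median peak had 9 and 10 fragments over a background of 1.64 and 1.57 times in the PPARα+ERα libraries, 27 and 30 over 9.89 and 8.52 times with PPARα+ERβ, and 36 and 51 over 13.5 and 16.9 times with PPARα. The PPARα+ERα peaks were therefore called mostly on few fragments in quiet regions, and the others mostly in regions of high background. Proteasome gene peaks showed the same split, with a median background of 2.42 and 2.15 times (PPARα+ERα), 13.6 and 14.6 times (PPARα+ERβ) and 20.9 and 19.9 times (PPARα). Its part in the differences between groups was not tested. Folds quoted below are the authors' own, the ratio of a summit to its local background, and they rank peaks only against others of 1 list.

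**Figure D1:**
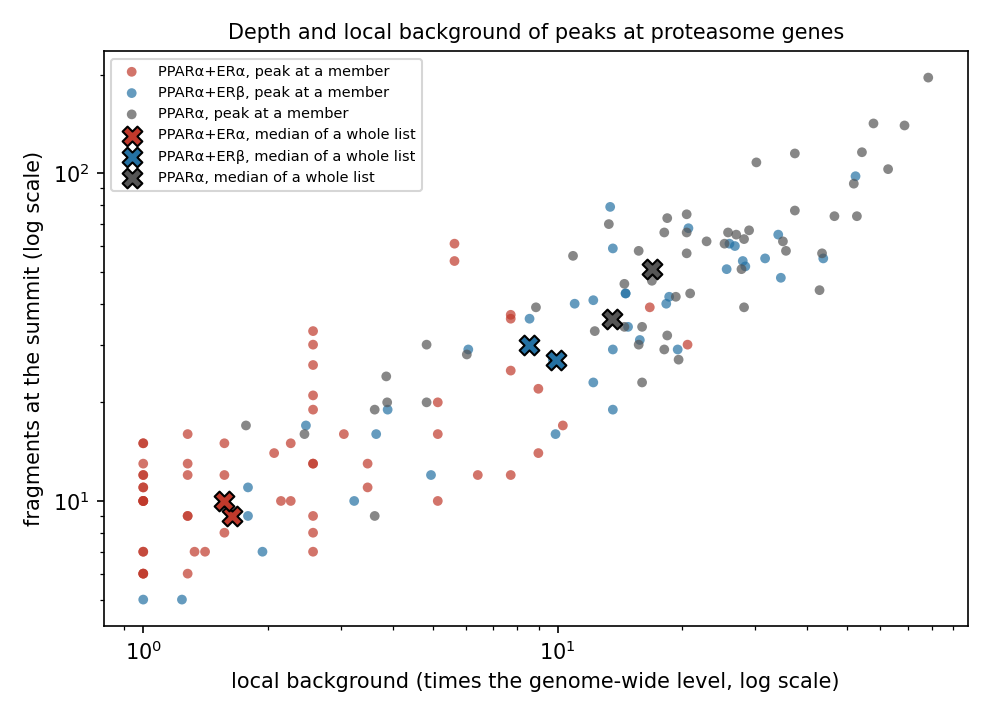
Fragments at the summit (vertical, log scale) against local background as a multiple of the genome-wide level (horizontal, log scale) for every peak at a proteasome gene, coloured by group, with crosses for the medians of the 6 whole lists. PPARα+ERα points lie mostly at low background and few fragments, whereas PPARα+ERβ and PPARα points lie mostly at higher background.

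The proteasome genes held 28 and 31 peaks with PPARα+ERα, 15 and 24 with PPARα+ERβ, and 17 and 36 with PPARα. The groups averaged 29.5 ± 2.12 peaks with PPARα+ERα, 19.5 ± 6.36 with PPARα+ERβ and 26.5 ± 13.4 with PPARα (SD, n = 2 each), and the PPARα libraries spanned almost the whole range. Per megabase of gene window the members held 18.0 and 19.9 peaks with PPARα+ERα, against 10.1 and 11.4 over the windows of all genes. With PPARα+ERβ the members held 9.63 and 15.4 peaks per megabase, against 7.32 and 9.75 over all genes, and with PPARα 10.9 and 23.1, against 9.39 and 14.7. The density at proteasome genes was thus above that of all genes in each of the 6 libraries. It counts the peaks of PSMD1 and PSMD12, for which the family was selected, so it is not independent of that selection. Proteasome genes are shorter than most, with a median span of 13.6 kb against 24.5 kb for all genes.

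A gene is called occupied in a group when both libraries had a peak at it. PPARα+ERα occupied 12 members (25.5%, against 25.4% of all genes), PPARα+ERβ 8 (17.0%, against 24.6%) and PPARα 12 (25.5%, against 30.6%). Before gene length was considered, these shares were close to those of all genes with PPARα+ERα and below them in the other groups. In all, 21 members were occupied in at least 1 group, and 13 others had a peak in some library without being occupied. The remaining 13 members (27.7%, against 34.8% of all genes) had no peak in any library. Only PSMA1 and PSME4 had a peak in all 6 libraries and were occupied in all 3 groups (4.26%, against 11.9% of all genes). Gene length went with occupancy, since occupied members had a median span of 28.7 kb and members without a peak 8.75 kb. At matched length the members had a peak somewhat more often than all genes, with 8 of 17 members under 10 kb (47.1%, against 29.7%) and 18 of 22 from 10 to 50 kb (81.8%, against 66.4%), and all 8 over 50 kb (against 95.2%). Occupied members from 10 to 50 kb made up 27.3% with PPARα+ERα (against 15.2% of all genes), 18.2% with PPARα+ERβ (against 16.1%) and 27.3% with PPARα (against 22.3%). Over 50 kb they made up 62.5% with PPARα+ERα (against 57.5%), 50.0% with PPARα+ERβ (against 53.1%) and 75.0% with PPARα (against 62.7%). PSMD12 is counted in the class from 10 to 50 kb and PSMD1 in that over 50 kb. The shares of these classes are thus not independent of the family's selection. Under 10 kb, 1 of 17 members was occupied with PPARα+ERα (5.88%, against 4.19%) and 0 in the other groups (against 4.77% with PPARα+ERβ and 6.53% with PPARα).

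**Figure D2:**
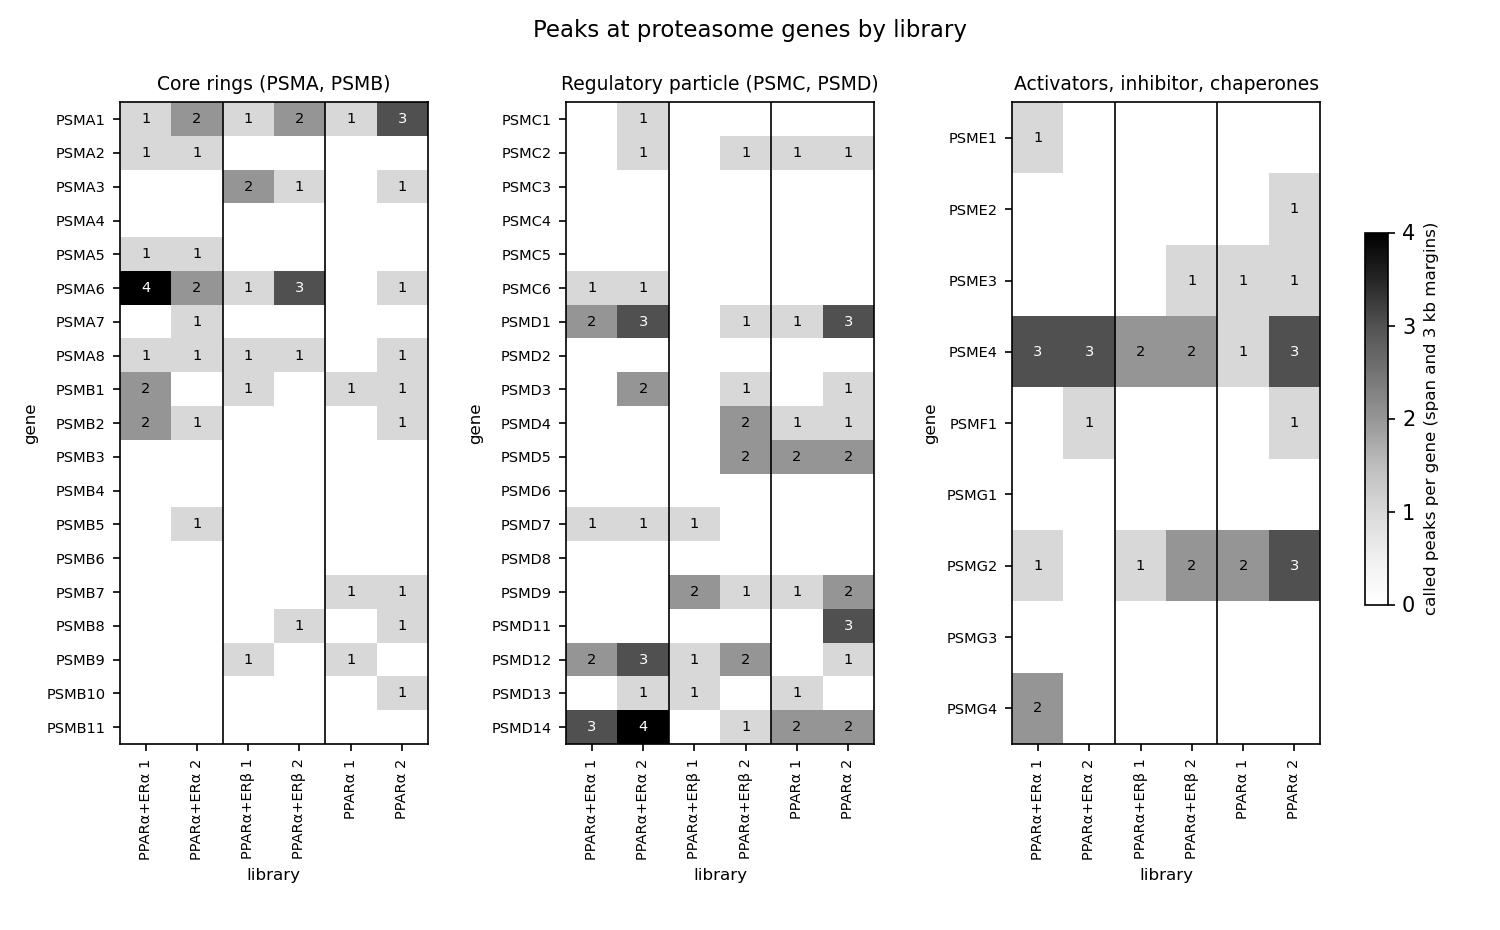
Called peaks per gene (number and shade) for the 47 proteasome genes in the 6 libraries, with vertical lines between the groups. PSMA2, PSMA5 and PSMC6 have a peak in both PPARα+ERα libraries and no other, PSMB7 in both PPARα libraries and no other, and 13 genes have none.

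The alpha subunits of the 20S core carried the largest share of occupied genes with PPARα+ERα, 5 of 8. Among these, PSMA1 and PSMA8 had no site with a peak in both PPARα+ERα libraries. With PPARα+ERβ 4 were occupied and with PPARα 1. Of all genes, 25.4% were occupied with PPARα+ERα, 24.6% with PPARα+ERβ and 30.6% with PPARα. Their median span of 27.3 kb was the longest among the parts of the proteasome with several members, and length went with occupancy. PSMA6 had 4 and 2 peaks in the PPARα+ERα libraries, 1 and 3 in the PPARα+ERβ libraries, and 0 and 1 in the PPARα libraries. Its main PPARα+ERα region (chr14:35291830-35292167) had its summit at −335 from the start site in both libraries, with fold 9.49 and 8.74 from 37 and 36 fragments. These peaks ranked at the 99.5 and 99.0 percentile of −log10 q in their lists, and no other library had a peak there. The start site used (chr14:35292317) lies inside the PSMA6 span (chr14:35278558-35317493). These peaks are thus not within 3 kb of either end of the span. A second PPARα+ERα region lay 9237 bases inside the gene (fold 5.83 and 8.2), and a separate region 20234 bases inside was shared by the PPARα+ERβ libraries (fold 2.50 and 3.54). These recurring sites of PSMA6 differed between the co-transfected groups, but a region past the end of the gene (chr14:35319362-35320121) had a peak in PPARα+ERα library 1 (fold 5.10) and PPARα+ERβ library 2 (5.64). A further region, 12628 and 12623 bases inside by summit, had one in PPARα+ERα library 1 (6.99) and PPARα library 2 (7.26).

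PSMA2 and PSMA5 had 1 peak in each PPARα+ERα library and none in the PPARα+ERβ and PPARα libraries. The PSMA2 region (chr7:42924193-42924706) lay 7759 bases inside the gene, with fold 11.3 and 8.45 from 16 and 12 fragments. The PSMA5 region (chr1:109405079-109405462) lay 21101 bases inside, with fold 10.1 and 9.16 from 13 and 12 fragments, at the 94.5 and 89.7 percentile. Both sites stood on background of at most 1.28 times the genome-wide level. PSMA3 had the reverse pattern, with no peak with PPARα+ERα, 2 and 1 with PPARα+ERβ, and 0 and 1 with PPARα. Its shared PPARα+ERβ region (chr14:58258448-58258787) had fold 3.63 and 2.94 from 42 and 40 fragments.

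PSMA1 and PSMA8, a testis form of an alpha subunit, were occupied mostly by peaks at different places in each library. PSMA1 had 1 and 2 peaks with PPARα+ERα, 1 and 2 with PPARα+ERβ, and 1 and 3 with PPARα. Only its region chr11:14537354-14537726 recurred within a group, in both PPARα libraries (fold 2.34 and 2.60) and PPARα+ERβ library 2 (2.60), over a background of 51.9 to 52.8 times. The start site of the table lies deep inside the PSMA1 span. Every PSMA1 peak lay upstream of that start, at −12340 to −118086 from it, and was counted because it fell in the span. PSMA8 had 1 peak in each co-transfected library and 0 and 1 with PPARα, and no site recurred. PSMA7 had a single peak, in PPARα+ERα library 2, and PSMA4 had none.

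Of the 11 beta subunits, 1 was occupied with PPARα+ERα, 0 with PPARα+ERβ and 2 with PPARα. Their median span of 5.66 kb was the shortest among the parts of the proteasome with several members. PSMB2, a structural subunit, had 2 and 1 peaks with PPARα+ERα, none with PPARα+ERβ, and 0 and 1 with PPARα. Its PPARα+ERα peaks lay at different sites in the 2 libraries. PSMB7, a subunit with a trypsin-like protease site, had peaks with PPARα alone (chr9:124413161-124413510, fold 2.69 and 2.55 from 58 and 62 fragments, background 35.6 and 35.0 times). PSMB1 had 2 and 0 peaks with PPARα+ERα, 1 and 0 with PPARα+ERβ, and 1 and 1 with PPARα. Its PPARα region (chr6:170532219-170532619, fold 3.37 and 3.24) was shared with PPARα+ERβ library 1 (3.62).

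The inducible subunits of the immunoproteasome were not occupied in any group. PSMB8 had 1 peak in PPARα+ERβ library 2 (fold 3.87) and 1 in PPARα library 2 (4.50), at a shared site whose window also belongs to TAP2, a peptide transporter gene. PSMB9 had 1 peak in PPARα+ERβ library 1 (3.81) and 1 in PPARα library 1 (6.26), at separate sites. PSMB10 had 1 peak, in PPARα library 2, with 196 fragments over a background of 78.5 times. PSMB5, the subunit with the chymotrypsin-like site, had 1 peak in PPARα+ERα library 2, and PSMB3, PSMB4, PSMB6 and PSMB11 had none.

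Of the 6 ATPase subunits, PSMC6 was occupied with PPARα+ERα and PSMC2 with PPARα. PSMC6 had 1 peak in each PPARα+ERα library and none elsewhere (chr14:52720230-52720638, fold 5.94 and 4.88 from 13 and 11 fragments). PSMC2 had 0 and 1 peaks with PPARα+ERα, 0 and 1 with PPARα+ERβ, and 1 and 1 with PPARα. Its PPARα region (chr7:103360079-103360425, fold 6.40 and 6.92) was shared with PPARα+ERβ library 2 (5.32) and also lies in the window of SLC26A5. PSMC1 had a single peak, in PPARα+ERα library 2, and PSMC3, PSMC4 and PSMC5 had none.

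The non-ATPase subunits of the 19S particle held the strongest peak of the family. PSMD1, a large scaffold subunit of the base, had 2 and 3 peaks with PPARα+ERα, 0 and 1 with PPARα+ERβ, and 1 and 3 with PPARα. Its PPARα+ERα peak at the promoter (chr2:231056478-231056887) had its summit 294 bases before the start site in both libraries. It rested on 54 and 61 fragments over a background of 5.64 times in each, with fold 17.2 and 18.4, and its percentile rounded to 100 in both lists. PPARα library 2 had a separate peak 1070 bases before the start (fold 3.89), and no PPARα+ERβ library had one at the promoter. A second PPARα+ERα region lay 58474 bases inside, in a window shared with the serotonin receptor gene HTR2B (fold 9.93 and 7.85). Another region, 87343 bases inside, had a peak in both PPARα libraries (3.91 and 5.08) and PPARα+ERβ library 2 (2.39), and no peak was called there with PPARα+ERα.

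PSMD12, a subunit of the 19S lid, had 2 and 3 peaks with PPARα+ERα, 1 and 2 with PPARα+ERβ, and 0 and 1 with PPARα. One PPARα+ERα region (chr17:67365186-67365525) lay 1238 bases inside the gene, with fold 13.5 and 14.9 from 26 and 30 fragments. The next (chr17:67361875-67363013) lay 3863 bases inside, with fold 11 and 16.4 from 21 and 33 fragments, and PPARα+ERβ library 2 also had a peak there (4.73). These were at or above the 98.2 percentile of the PPARα+ERα lists. The PPARα+ERβ libraries shared a region past the far end of the gene (chr17:67335984-67336675, fold 4.88 and 5.29) with PPARα library 2 (8.17).

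PSMD14, the deubiquitinase of the 19S lid, had 3 and 4 peaks with PPARα+ERα, 0 and 1 with PPARα+ERβ, and 2 and 2 with PPARα. Every PPARα+ERα library was above, and every PPARα+ERβ library below, both PPARα libraries, and this difference was not tested. The share of all genes with this order is not given here. The PPARα+ERα libraries shared regions 81319 bases (fold 8.63 and 11.3) and 85383 bases inside (5.76 and 4.93). Those of PPARα lay 2316 and 2383 bases before the start (2.64 and 3.10) and 48337 bases inside (1.71 and 1.91), the last with a peak in PPARα+ERβ library 2 (1.75). No site was shared between the PPARα+ERα and PPARα libraries.

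PSMD7, the partner of PSMD14 in the lid, had 1 peak in each PPARα+ERα library, 1 and 0 with PPARα+ERβ, and none with PPARα. Its PPARα+ERα peaks lay at different sites, 1652 bases before the start (fold 8.29) and 6744 bases inside (11.3). PSMD4, a ubiquitin receptor, and PSMD5, an assembly chaperone of the 19S base, showed the opposite order. PSMD4 had no peak with PPARα+ERα, 0 and 2 with PPARα+ERβ, and 1 and 1 with PPARα, where its shared region had fold 2.23 and 3.05. PPARα+ERβ library 2 also had a peak in that region (2.02). The region ranked at the 3.77 and 23.2 percentile of the PPARα lists. PSMD5 had no peak with PPARα+ERα, 0 and 2 with PPARα+ERβ, and 2 and 2 with PPARα. One PSMD5 region (chr9:120843624-120843982) lay 855 bases before the start, with fold 3.32 and 5.10 in the PPARα libraries and 4.4 in PPARα+ERβ library 2. The other lay 18599 bases inside, with fold 4.14 and 3.86 in the PPARα libraries and 4.36 in PPARα+ERβ library 2.

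PSMD9, also an assembly chaperone of the base, had no peak with PPARα+ERα, 2 and 1 with PPARα+ERβ, and 1 and 2 with PPARα. Its region chr12:121896946-121897285 was bound in all 4 libraries of those groups, with fold 3.83 and 3.05 with PPARα+ERβ and 4.15 and 5.05 with PPARα. PSMD3 had 0 and 2 peaks with PPARα+ERα, 0 and 1 with PPARα+ERβ, and 0 and 1 with PPARα. PSMD13 had 1 peak in 1 library of each group at a shared site, with fold 4.81 with PPARα+ERα, 7.36 with PPARα+ERβ and 6.96 with PPARα. PSMD11 had 3 peaks, all in PPARα library 2, and PSMD2, PSMD6 and PSMD8 had none.

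**Figure D3:**
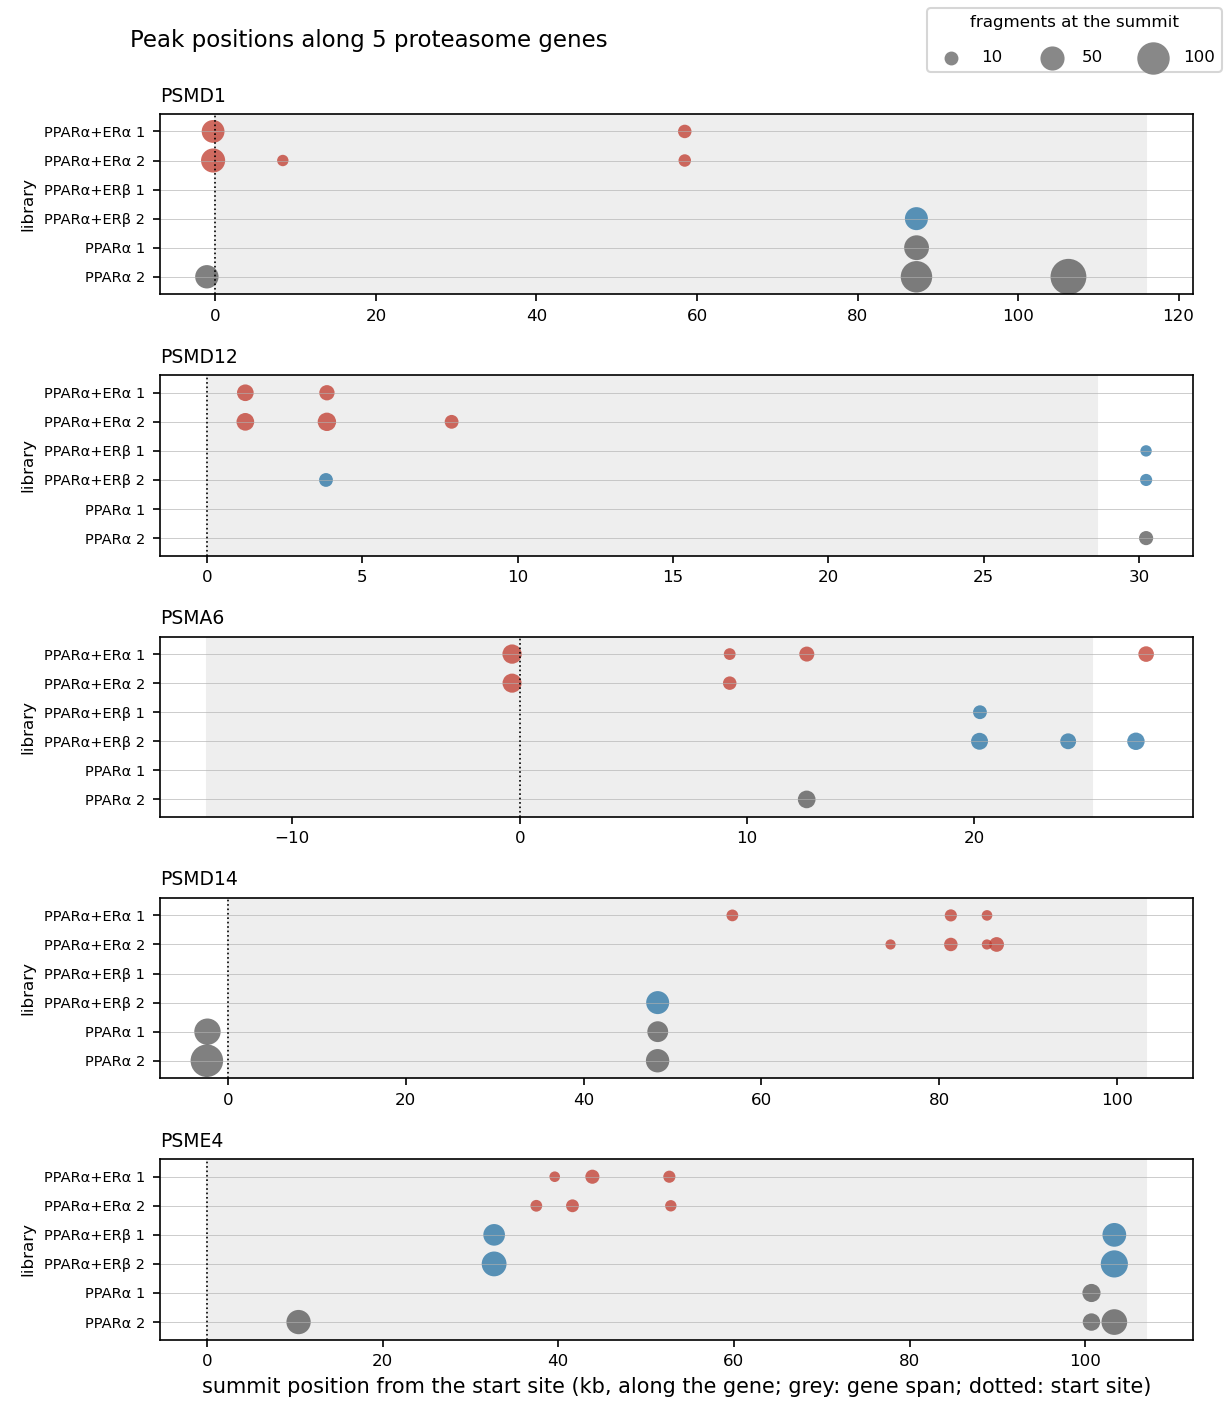
Summit positions along PSMD1, PSMD12, PSMA6, PSMD14 and PSME4 in kb from the start site, 1 row per library, with circle area growing with the fragments at the summit, the gene span in grey and the start site dotted. The PPARα+ERα circles at the start of PSMD1 and PSMA6 recur in both libraries at the same position. PPARα library 2 has a separate PSMD1 peak at −1070, close to those circles on this scale, and the remaining circles of other groups at these genes lie elsewhere.

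Among the activators, PSME4, which encodes the nuclear activator PA200, had 3 and 3 peaks with PPARα+ERα, 2 and 2 with PPARα+ERβ, and 1 and 3 with PPARα. Its strongest region (chr2:53867508-53868052), near the far end of the gene, had fold 6.70 and 7.62 with PPARα+ERβ, at the 98.4 and 99.6 percentile, and 7.1 in PPARα library 2. The PPARα+ERα libraries shared another region 52731 bases inside (fold 8.63 and 6.50), the PPARα+ERβ libraries one 32702 bases inside (2.31 and 2.62), and the PPARα libraries one 100701 bases inside (2.79 and 2.26). The gene was occupied in every group without a site common to all of them. PSME3, which encodes the nuclear activator PA28γ, had no peak with PPARα+ERα, 0 and 1 with PPARα+ERβ, and 1 and 1 with PPARα. Its region (chr17:42836440-42836898) had fold 2.62 in PPARα+ERβ library 2 and 2.31 and 5.07 in the PPARα libraries.

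The subunits of the interferon-inducible activator PA28 had 1 peak each, PSME1 in PPARα+ERα library 1 and PSME2 in PPARα library 2, in windows shared with FITM1 and EMC9. PSMF1, the inhibitor, had 1 peak in PPARα+ERα library 2 and 1 in PPARα library 2, at different sites. Among the core assembly chaperones, PSMG2 had 1 and 0 peaks with PPARα+ERα, 1 and 2 with PPARα+ERβ, and 2 and 3 with PPARα. Its region chr18:12717689-12718027 was bound in both PPARα+ERβ libraries (fold 3.0 and 2.64) and both PPARα libraries (3.64 and 3.30). A second PPARα region in PSMG2 also lies in the window of CEP76 (2.27 and 3.41). PSMG4 had 2 peaks, both in PPARα+ERα library 1, and PSMG1 and PSMG3 had none. One of the PSMG4 peaks lay 2838 bases outside the span (fold 7.91 from 10 fragments), the last inside the 3 kb margin, and the first beyond it lay 3074 bases from PSMA7 in the same library (fold 7.99 from 27 fragments).

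A gene was called higher in one group of a comparison when both of its libraries had a peak and neither library of the other group did, and lower in the opposite case. PPARα+ERα against PPARα asks how PPARα occupancy differs when ERα and its agonist are present. PSMA2, PSMA5, PSMC6 and PSMD7 were called higher, 4 of 47 members (8.51%), where 5.39% of all genes were. PSMB7, PSMD4, PSMD5, PSMD9 and PSME3 were called lower, 5 members (10.6%), where 7.77% of all genes were. Members called higher included core and 19S subunits, and so did those called lower, and both shares were a few points above those of all genes. With only peaks on a background of at most 3 times the genome-wide level, 7 members were called higher and 0 lower, and PPARα occupied 0 members. That setting kept 74.0 and 76.7% of the PPARα+ERα peaks but 15.6 and 12.4% of the PPARα peaks. A shift in this direction is therefore built into it, and the matching counts over all genes are not given here.

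PPARα+ERβ against PPARα asks the same of ERβ. No member was called higher, where 1.09% of all genes were, and PSMB7 alone was called lower (2.13%), where 3.19% of all genes were. Both comparisons use the same PPARα libraries. In PPARα+ERα against PPARα+ERβ, PSMA2, PSMA5, PSMB2 and PSMC6 were called higher (8.51%, where 6.40% of all genes were), and PSMA3 and PSMD9 lower (4.26%, where 5.19% were). The members' shares lay within a few genes of the background in each direction.

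**Figure D4:**
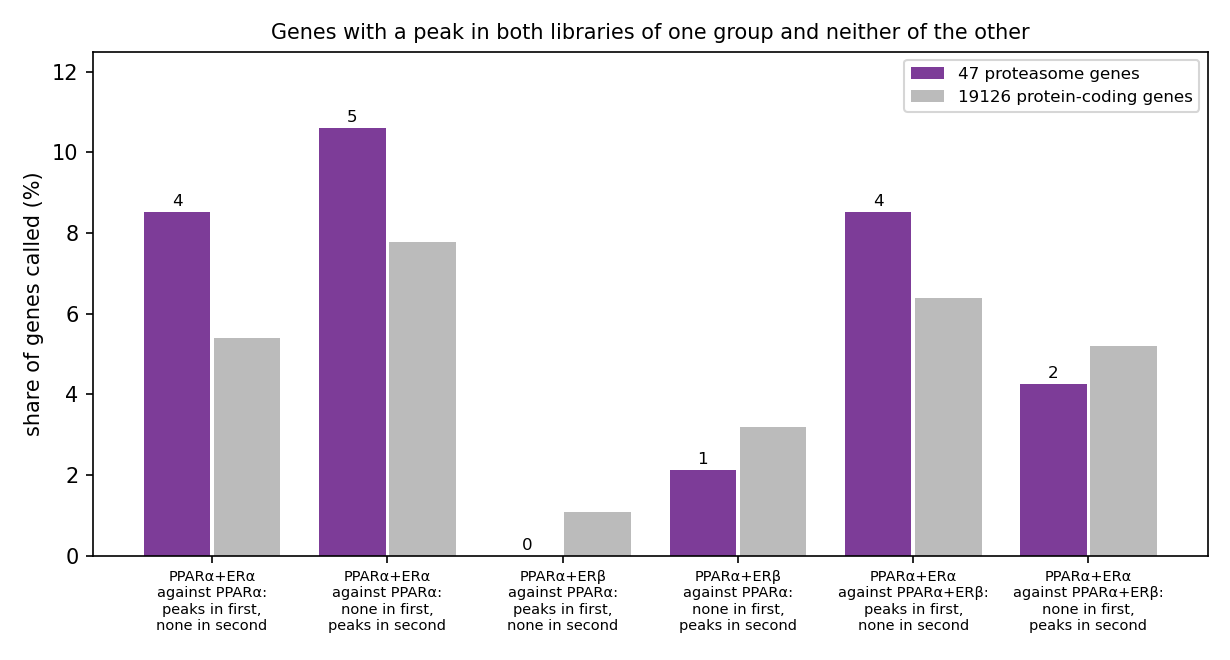
Share of the 47 proteasome genes and of the 19126 protein-coding genes (vertical, percent) with a peak in both libraries of one group and in neither of the other, by comparison and direction, with the number of members above each bar. In PPARα+ERα against PPARα the members' share is above that of all genes in both directions, and in PPARα+ERβ against PPARα below it in both.

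Overlapping peaks merged into 94 regions at members, of which 55 had a peak in 1 library and 0 in all 6. PPARα+ERα had a peak in 47 of these regions and in both libraries at 12 (25.5%, against 20.7% of its regions genome-wide), PPARα+ERβ in 32 and 7 (21.9%, against 33.7%), and PPARα in 38 and 15 (39.5%, against 41.7%). Of the 12 regions held by both PPARα+ERα libraries, 11 had no peak in any other library (91.7%, against 89.8% of such regions genome-wide), the exception being the second PSMD12 region. None of the 15 regions held by both PPARα libraries had a PPARα+ERα peak, as was so for 95.0% of such regions genome-wide, and 12 had a PPARα+ERβ peak (80%, against 69.4%). The members' sites were thus split between the groups about as much as sites genome-wide. PSMD9 and PSMG2 held the 2 regions bound in both libraries of PPARα+ERβ and of PPARα.

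By the same rule for regions, PPARα+ERα was higher than PPARα at 12 of 83 member regions (14.5%, where 10.2% of all regions were) and lower at 15 (18.1%, where 20.0% were). The count of lower regions was 0 with peaks on a background of at most 3 times the genome-wide level and 4 with lists of equal length. The background setting removes most PPARα peaks, so a fall there is built into it. The matching counts over all regions are not given here for either setting. The 12 regions lay in PSMA2, PSMA5, PSMA6, PSMC6, PSMD1, PSMD12, PSMD14 and PSME4. They include peaks of PSMD1 and PSMD12, for which the family was selected. The shares called higher with PPARα+ERα, here and against PPARα+ERβ, are thus not independent of that selection. PPARα+ERβ was higher than PPARα at 3 of 51 regions (5.88%, where 2.78% were), in PSMA3, PSMA6 and PSME4, and lower at 3 (5.88%, where 10.3% were), in PSMB7, PSMD14 and PSME4. PPARα+ERα was higher than PPARα+ERβ at 11 of 76 regions (14.5%, where 11.6% were) and lower at 7 (9.21%, where 12.7% were). PSMA6, PSMD12 and PSME4 held regions in both directions of the comparison between the co-transfected groups. Each of these genes was occupied in both groups.

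Start sites were examined after the peaks at PSMD1 and PSMA6 had been seen, for the 41 members with an entry in the promoter table. Of these, 2 (4.88%) had a summit within 1 kb of the start in both PPARα+ERα libraries, PSMA6 and PSMD1, where 0.987% of 15101 genes did. PSMD1 was also a gene for which the family was selected, so this share is not independent of the selection. With PPARα+ERβ there was none (where 1.02% of genes had one), though PSMD5 had a peak there in 1 library. With PPARα the only such member was PSMD5 (2.44%, where 0.980% of genes had one).

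In promoters taken from 250 bases before to 50 after the start, the half-site AGGTCA on either strand was in 5 of 41 members (12.2%), PSMA6, PSMB2, PSMD1, PSMD7 and PSMG4, and in 11.7% of all 15101 promoters. The DR1 element to which PPARα binds with its partner RXR is a pair of such half-sites with 1 base between them, and the estrogen response element is an inverted pair. No member promoter held an exact DR1 or an exact estrogen response element, and 0.0199 and 0.0397% of all promoters did. The antioxidant response core TGACNNNGC was in 13 members (31.7%, against 14.2% of all promoters), among them PSMD1, PSMD12, PSMD5 and PSME4. The ETS core CCGGAAG was also in 13 (31.7%, against 14.4%). The CCAAT box was in 18 (43.9%, against 36.0%) and TATAAA in 5 (12.2%, against 9.71%). Member promoters had a median GC content of 61.6%, against 62.4% for all. The antioxidant core and the ETS core were thus the motifs whose share most exceeded that of all promoters, while the half-site did not stand out. A match describes the letters only and is not a binding site.

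Partners of the proteasome outside the symbol rule were read from a list of 25 receptors, deubiquitinases, shuttles, assembly factors, ubiquitin genes and regulators. Of these, 8 were occupied with PPARα+ERα (32.0%), 3 with PPARα+ERβ (12%) and 6 with PPARα (24.0%), where 25.4, 24.6 and 30.6% of all genes were. NGLY1, the deglycosylase that processes NFE2L1, and ZFAND5, a proteasome activator, were called higher with PPARα+ERα than with PPARα. UBQLN1, a ubiquitin shuttle, and VCP, the segregase that unfolds ubiquitinated proteins, were called lower. These are 8.0% of the list in each direction, where 5.39 and 7.77% of all genes were called. SEM1, a small lid subunit, was called lower with PPARα+ERβ than with PPARα (4.0% of the list, where 3.19% of all genes were). PAAF1, PITHD1 and ZFAND5 were called higher with PPARα+ERα than with PPARα+ERβ (12% of the list, where 6.40% of all genes were). DDI2, the protease that activates NFE2L1, was called lower (4.0% of the list, where 5.19% of all genes were). The PITHD1 peaks lay at different sites in the 2 PPARα+ERα libraries. DDI2 had no peak with PPARα+ERα, 3 and 3 with PPARα+ERβ, and 0 and 1 with PPARα. NFE2L1 itself had only 1 peak, in PPARα library 2.

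Of 77 cytosolic ribosomal protein genes, 14.3% were occupied with PPARα+ERα, 10.4% with PPARα+ERβ and 15.6% with PPARα, and of 77 mitochondrial ribosomal protein genes 16.9, 9.09 and 19.5%. In PPARα+ERα against PPARα, 10.4% of the cytosolic set were called higher and 10.4% lower, and 10.4 and 9.09% of the mitochondrial set. Of all genes, 5.39 and 7.77% were. Both ribosomal sets were thus occupied less often than the proteasome genes in every group, with shorter median spans of 5.04 and 8.62 kb, while the proteasome genes' 8.51 and 10.6% called higher and lower were close to theirs. Of 9 COP9 signalosome genes, 33.3% were occupied in each group. With PPARα+ERα 2 of them (22.2%) were called higher than with PPARα+ERβ, where 6.40% of all genes were, and 1 (11.1%) lower, where 5.19% were. In PPARα+ERα against PPARα, 1 was called higher and 1 lower (11.1% each). In PPARα+ERβ against PPARα, 0 were called higher and 1 lower (11.1%), where 1.09 and 3.19% of all genes were.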

How the data were processed

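HepG2 chromatin precipitated with an antibody to PPARα was analysed from 6 deposited peak lists, 2 for each group, and the no-antibody sample was not analysed here. Tools listed, without their roles, per the submitters' processing notes are MACS2 2.2.7.1, Bowtie 1.0.1, DiffBind 2.16, ChIPseeker 1.18.0, HOMER 4.11 and Trim Galore 0.6.4, with builds GRCh38.p13 and hg38. The control used for peak calling is not given in the sources used here. In the deposited lists the authors' score is 10 times the −log10 q, their fold is a ratio of summit to local background, and their −log10 p and −log10 q belong to the summit. Read depth is unknown.

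Peaks were joined to RefSeq GRCh38 gene spans by summit with SciPy 1.17.1, NumPy 2.4.6 and pandas 2.3.3 under Python 3.11.15. Fragments and background were recovered by matching each −log10 p to a Poisson tail, with 1 added to both terms of the fold, to within 0.001 for 100.0% of peaks. The genome-wide level of each list was taken from the lowest end of the local backgrounds of its own peaks. The steps were tested on simulated data. Genes were called by presence or absence, with no p-value. Promoter sequences are from RefSeq (GRCh38.p14), which had 41 of the 47 members and not PSMA7, PSMB1, PSMB6, PSMB7, PSMD4 or PSMG3. Every member called or occupied was named with its values, and the 5 with the highest-ranking regions in every library. Alternatives covered the margin, threshold, list length, background, symbols and libraries. The members and lists were chosen with earlier results of these data known.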

Additional observations from a re-analysis of the deposited data

Results flagged for a closer look

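PSMD14 was the only member at which every PPARα+ERα library had more peaks (3 and 4), and every PPARα+ERβ library fewer (0 and 1), than both PPARα libraries (2 and 2). The mean of PPARα+ERα exceeded that of PPARα+ERβ by 3.0 peaks per library. The difference was not tested, and both co-transfected groups were set against the same PPARα libraries. The share of all genes with this order of groups is not given here. PSMD14 spans 103 kb, and among the members gene length went with occupancy. The sites shared by the PPARα+ERα libraries had 11 and 15 and then 7 and 6 fragments over a background of 1.0 times the genome-wide level. Those shared by the PPARα libraries had 74 and 116 and then 44 and 57 fragments over 42.9 to 54.3 times, and the part of this contrast in the counts was not tested.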

How the results depend on the processing

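No paired analysis was possible because the labels give the groups no shared replicate numbers, and the numbers used here follow the order of deposit. The counts over all genes and regions under the alternatives below are not given here. The members' counts under them therefore cannot be set against a background share. In the order PPARα+ERα, PPARα+ERβ, PPARα, the counts of occupied members were 12, 8 and 12. Counting only summits within 3 kb of either end gave 3, 1 and 5 occupied members. It gave 1 member called higher with PPARα+ERα than with PPARα, 2 lower with PPARα+ERβ than with PPARα, and, between PPARα+ERα and PPARα+ERβ, 1 higher and 0 lower. For regions it gave 2 higher and 5 lower, 0 higher with PPARα+ERβ than with PPARα, and 2 higher and 1 lower between the co-transfected groups.

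Keeping peaks on a background of at most 3 times the genome-wide level, which left 74.0 and 76.7% of PPARα+ERα, 21.1 and 24.2% of PPARα+ERβ and 15.6 and 12.4% of PPARα peaks, gave 8, 1 and 0 occupied members. PPARα+ERα was then higher at 7 members and lower at 0 in both of its comparisons, and PPARα+ERβ was lower than PPARα at 0. For regions, PPARα+ERα was lower than PPARα at 0 and than PPARα+ERβ at 1, and PPARα+ERβ differed from PPARα at 0 in each direction. Loss of most PPARα and PPARα+ERβ peaks is built into that setting.

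Lists cut to 17032 peaks gave 4 occupied members with PPARα. PPARα+ERα was then lower than PPARα at 2 members and 4 regions, and PPARα+ERβ higher at 2 members and lower at 1 region. Peaks with −log10 q of 3 or more gave 5 occupied members with PPARα+ERβ, and 3 members lower with PPARα+ERα and 2 with PPARα+ERβ than with PPARα. Summits within 1 kb of the start site, an alternative chosen after seeing the data, gave 2, 0 and 1 occupied members, 2 higher and 1 lower in PPARα+ERα against PPARα, 0 lower in PPARα+ERβ against PPARα, and 2 higher and 0 lower between the co-transfected groups. The same alternatives were applied to regions after seeing the data. Any overlap, the span alone, regions sharing 50% and the symbols PSMC3IP and PSME3IP1 left every count within 1.5 times. For the shifts whose construction does not show it, the cause was not tested.

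Leaving out 1 library, with the lone library standing for its group, gave 16 to 19 occupied members with PPARα+ERα, 12 to 16 with PPARα+ERβ and 14 to 23 with PPARα. Members called higher and lower numbered 4 to 8 and 6 to 10 in PPARα+ERα against PPARα, 0 to 4 and 1 to 7 in PPARα+ERβ against PPARα, and 5 to 8 and 2 to 6 between the co-transfected groups. Regions numbered 12 to 30 and 15 to 35, 3 to 9 and 4 to 18, and 11 to 29 and 7 to 22 in those comparisons. A count of peaks required in both libraries cannot fall when one of them is left out. Without PPARα library 1, PPARα+ERα was lower at 10 members and PPARα+ERβ at 6, and without PPARα library 2, PPARα+ERα was higher at 8 and PPARα+ERβ at 4. Without PPARα+ERβ library 2, PPARα+ERβ was lower at 7 members and at 12 regions, and without library 1 PPARα+ERα was lower than PPARα+ERβ at 6 members and 22 regions. Without PPARα+ERα library 1 and 2, PPARα+ERα was higher than PPARα at 30 and 27 regions and higher than PPARα+ERβ at 29 and 26.

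Of 63 differences in libraries with a peak at named members, 22 were the same, 36 moved and 5 turned direction with low background. With lists of equal length 38 were the same and 25 moved, near the ends 38 were the same, 23 moved and 2 turned, at the stricter threshold 49, 13 and 1, and with the span alone 52, 10 and 1. With low background, the difference became 1 library for PPARα+ERα minus PPARα at PSMB1, PSMC2 and PSMG2, for PPARα+ERβ minus PPARα at PSMD4, and for PPARα+ERα minus PPARα+ERβ at PSMG2. The first was also 1 for PSMB1 with the span alone and for PSMC2 near the ends, and -1 for PSMB2 near the ends. At the stricter threshold, PSMA8 gave -1 for PPARα+ERβ minus PPARα. Read depth is unknown, so the absence of a peak is not the absence of binding.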
